A study of Mus musculus with 6 samples.

Results

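The 10 genes described here steer the fate of the pyruvate made by glycolysis, and their levels were compared in neutrophils of SB28 brain tumors, in neutrophils of the blood of the same kind of mice, and in the other leukocytes of the tumors. They are Ldha, Ldhb, Slc16a3, Slc16a1, Bsg, Pdk1, Pdk3, Pdha1, Mpc1 and Mpc2, chosen by symbol, and they are 10 of the 32285 genes in the count tables. Lactate dehydrogenase turns pyruvate into lactate and back, with a muscle-type subunit encoded by Ldha and a heart-type subunit encoded by Ldhb. The monocarboxylate transporters MCT4 and MCT1, encoded by Slc16a3 and Slc16a1, carry lactate across the plasma membrane with the help of the chaperone basigin, encoded by Bsg. Pyruvate that is kept enters mitochondria through the carrier formed by MPC1 and MPC2 and is converted to acetyl-CoA by the pyruvate dehydrogenase complex, whose E1 alpha subunit is encoded by Pdha1 and is switched off by kinases such as PDK1 and PDK3. Neutrophils are known for relying on glycolysis and having few mitochondria, and LDHA, MCT4 and PDK1 are textbook targets of the hypoxia-inducible factor HIF-1.

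The libraries came from mice bearing tumors of SB28, a mouse glioma cell line, on day 18 after 10000 cells had been injected, and were made with 10x 3' single-cell chemistry. All mice carried a tumor, so the blood neutrophils are not those of healthy animals. The 3 groups of 2 libraries were neutrophils sorted from tumor, CD45+ leukocytes of the tumor, and neutrophils sorted from blood; both neutrophil sorts gated CD45+ CD11b+ cells that were high for LY6G and low or negative for LY6C. The labels name no genotype, treatment, strain, sex or age. Nor do they say whether samples 1 and 2 of a group were taken from different mice, so a p-value here measures sample-to-sample spread that could be technical. Mice were bled and then perfused before the tumor was taken, and only the tumor went through tissue processing; handling and tissue cannot be told apart. The labels name a pair of NovaSeq runs without saying which libraries each held, so run effects were not tested.

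Cells in which S100a8 and S100a9 together made up at least 0.5% of UMIs (unique molecular identifiers, the counted RNA molecules) were called neutrophils. There were 3347 and 5548 of them in sorted tumor, 613 and 809 in CD45+ tumor and 2951 and 5006 in sorted blood, with median depths of 3904 and 3871.5, 1614 and 2648, and 4253 and 3952 UMIs. The other cells of the CD45+ libraries numbered 8039 and 7298 and were deeper, at 6748 and 12131.5 UMIs. All 9 neutrophil markers looked up, among them Csf3r, Cxcr2 and Ly6g, were detected in the neutrophils of every library. Their summed level was 75050 and 84230 CPM (a gene's counts per 1000000 UMIs of the same cells, and counting at the 3' end puts no gene length into it) in sorted tumor, 48950 and 52630 CPM in CD45+ tumor and 170800 and 164800 CPM in blood neutrophils. The 9 include S100a8 and S100a9, which define these cells, so the rule itself sets much of these sums. All 9 also had a UMI among cells outside the rule in both sorted tumor libraries, in CD45+ sample 1 and in blood sample 1. There the sums were 3469 and 3159, 957 and 4422 CPM.

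Part of the cells called neutrophils in the tumor also carried RNA of mononuclear phagocytes. Cells in which C1qa, C1qb, C1qc, Apoe, Cd74, Ctss and Ms4a7 together passed 0.5% of UMIs were 5.74% and 4.24% of sorted tumor neutrophils, 18.3% and 15.9% of CD45+ tumor neutrophils and 0.136% and 4.41% of blood neutrophils. They are called marked cells here, and the other neutrophils unmarked. The 4 and 221 marked cells of blood had 7250 and 1731 CPM of the 7 B or plasma cell markers. They also had 4506 and 3903 CPM of the 10 macrophage markers. Those of blood sample 1 had no UMI of C1qa, C1qb, C1qc or Ms4a7, so in blood the mark is not particular to phagocyte RNA. C1qa, which encodes a complement subunit made by macrophages, stood at 877 and 639 CPM in all sorted tumor neutrophils and at 41.5 and 45.4 CPM in the unmarked ones; in the CD45+ tumor libraries all neutrophils had 1326 and 1804 CPM and the unmarked ones 89.9 and 111 CPM. The 10 macrophage markers looked up summed to 5109 and 3914 CPM in sorted tumor, 8664 and 12850 CPM in CD45+ tumor and 358 and 476 CPM in blood neutrophils; in unmarked neutrophils they summed to 463 and 408, 1130 and 1434, and 345 and 381 CPM. C1qa and the macrophage markers C1qb, C1qc, Apoe and Ms4a7 are among the genes that define marked cells. Leaving out marked cells therefore lowers these values by the rule itself. Results below are given for all neutrophils and for unmarked neutrophils. CD45+ sample 1 and sorted tumor sample 2 also shared 162 cell barcodes, against at most 35 for any other pair of libraries. Of the neutrophils, 54 of 613 in CD45+ sample 1 and 70 of 5548 in sorted tumor sample 2 had such a barcode. The 162 barcodes had a median of 740 UMIs in CD45+ sample 1 and 27892.5 UMIs in sorted tumor sample 2, and the cause was not tested. Leaving out all shared barcodes is one of the alternatives, and in it all 10 genes kept their call between tumor and blood.

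The promoters of the 3 isoform pairs are shown first, because the genes of a pair differ in how many stretches of letters that HIF can bind they hold there. Each line gives 250 bases before to 50 bases after the transcription start, 5' to 3' in the sense of the gene, from RefSeq for GRCm38.p6, and capitals mark ACGTG and GCGTG, the cores of the hypoxia response element, on either strand, so CACGT and CACGC are the same letters read on the other strand.
Ldha promoter, chr7:46845554-46845853, plus strand: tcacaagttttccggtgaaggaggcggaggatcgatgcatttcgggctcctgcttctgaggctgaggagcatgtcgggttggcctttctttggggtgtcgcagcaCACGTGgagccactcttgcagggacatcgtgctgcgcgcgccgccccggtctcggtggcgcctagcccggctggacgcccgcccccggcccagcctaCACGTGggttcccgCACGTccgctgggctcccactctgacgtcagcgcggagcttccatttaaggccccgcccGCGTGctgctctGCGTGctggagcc
Ldhb promoter, chr6:142507908-142508207, minus strand: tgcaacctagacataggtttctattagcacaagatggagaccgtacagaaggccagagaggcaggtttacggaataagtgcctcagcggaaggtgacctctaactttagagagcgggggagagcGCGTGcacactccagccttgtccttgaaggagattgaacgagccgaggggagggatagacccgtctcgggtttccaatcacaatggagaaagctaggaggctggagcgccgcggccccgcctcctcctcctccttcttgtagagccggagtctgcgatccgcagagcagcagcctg
Slc16a3 promoter, chr11:120948817-120949116, plus strand: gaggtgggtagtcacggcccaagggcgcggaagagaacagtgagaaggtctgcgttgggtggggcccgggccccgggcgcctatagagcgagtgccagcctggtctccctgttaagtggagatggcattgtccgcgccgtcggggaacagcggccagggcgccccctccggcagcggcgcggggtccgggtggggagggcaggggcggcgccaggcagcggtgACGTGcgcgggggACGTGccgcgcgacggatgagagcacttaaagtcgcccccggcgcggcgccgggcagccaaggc
Slc16a1 promoter, chr3:104638414-104638713, plus strand: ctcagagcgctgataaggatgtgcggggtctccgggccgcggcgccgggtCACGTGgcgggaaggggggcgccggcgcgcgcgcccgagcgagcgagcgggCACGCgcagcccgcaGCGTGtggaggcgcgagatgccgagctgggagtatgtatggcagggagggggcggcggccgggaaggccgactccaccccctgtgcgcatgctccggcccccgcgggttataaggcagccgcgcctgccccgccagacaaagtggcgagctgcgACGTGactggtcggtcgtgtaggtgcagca
Pdk1 promoter, chr2:71872974-71873273, plus strand: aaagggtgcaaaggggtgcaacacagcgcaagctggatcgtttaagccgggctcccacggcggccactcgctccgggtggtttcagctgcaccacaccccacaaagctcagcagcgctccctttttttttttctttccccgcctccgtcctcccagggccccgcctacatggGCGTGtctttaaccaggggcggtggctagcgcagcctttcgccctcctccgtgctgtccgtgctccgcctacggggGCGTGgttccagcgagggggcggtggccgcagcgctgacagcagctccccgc
Pdk3 promoter, chrX:93832101-93832400, minus strand: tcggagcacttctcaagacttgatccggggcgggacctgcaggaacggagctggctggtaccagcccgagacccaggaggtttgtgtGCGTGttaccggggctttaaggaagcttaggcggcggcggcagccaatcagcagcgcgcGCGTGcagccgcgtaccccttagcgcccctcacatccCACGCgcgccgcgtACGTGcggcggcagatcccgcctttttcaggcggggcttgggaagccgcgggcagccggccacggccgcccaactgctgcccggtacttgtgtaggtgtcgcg

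The Ldha promoter held 5 ACGTG matches over both strands, of which 4 are the 2 strands of 2 CACGTG palindromes, the E-box that MYC and related factors bind, and 2 GCGTG matches. The Ldhb promoter held no ACGTG and 1 GCGTG. Slc16a3 held 2 ACGTG and no GCGTG, and Slc16a1 held 3 ACGTG, which include both strands of 1 CACGTG, and 2 GCGTG. Pdk1 held no ACGTG and 2 GCGTG, and Pdk3 held 1 ACGTG and 3 GCGTG. Of 32851 promoters of this length, 19.6% held ACGTG on either strand, 32.4% GCGTG, 43.8% at least 1 of them and 7.15% CACGTG. A further RefSeq promoter of Ldha held 2 GCGTG, and one of Pdk1 held neither. Pdha1 held no ACGTG and 4 GCGTG, and Mpc1 and Mpc2 held no ACGTG and 1 GCGTG each. A match describes letters in this window only, and 9 of the 10 genes had a promoter entry.

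Tumor neutrophils were compared with blood neutrophils through the same sort gate. In tumor neutrophils 7 of the 10 genes rose and 3 fell: the dehydrogenase, transporter and kinase genes were higher, and the genes for pyruvate dehydrogenase E1 alpha and for both carrier subunits were lower. By edgeR's quasi-likelihood test, with Benjamini-Hochberg adjustment over 13635 genes, 33.3% of all genes tested were called higher and 30.7% lower, so 64% were called and a call alone sets no gene apart. The median log2 change was 1.73 over the 10 genes and 0.02 over all genes tested. In unmarked neutrophils the same 7 rose and the same 3 fell, where 59.8% of 12713 genes were called (30.5% higher, 29.2% lower). Each log2 change below is given with its SE and has 2 libraries per group. Where groups are said not to overlap, this sets no gene apart either, as its share over all genes was not counted.

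**Figure D1:**
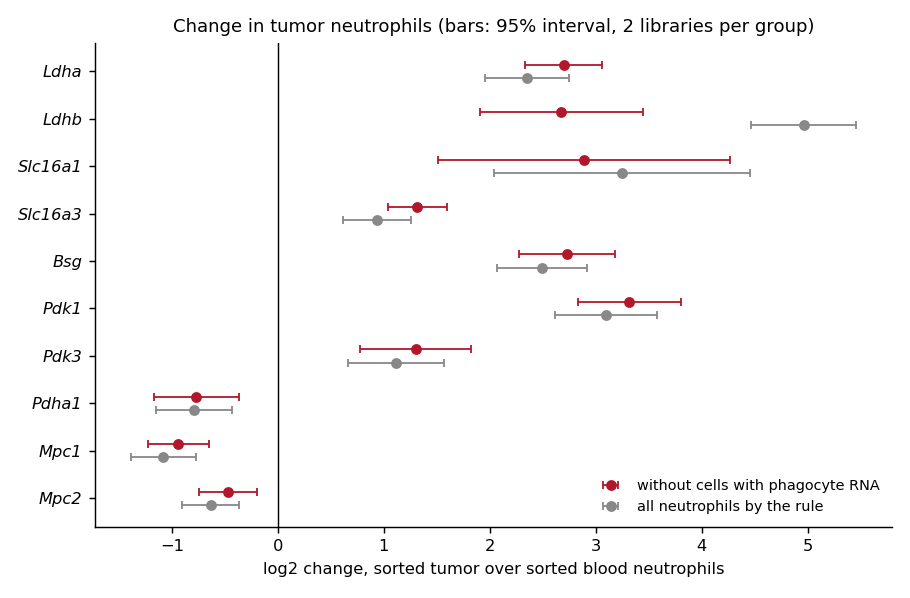
Log2 change (sorted tumor over sorted blood neutrophils) of each of the 10 genes, with 95% intervals from edgeR, 2 libraries per group. Red points are unmarked neutrophils, without phagocyte RNA, and grey points all neutrophils by the S100a8 and S100a9 rule. The intervals of 7 genes lie above 0 and those of Pdha1, Mpc1 and Mpc2 below it in both sets, and Ldhb is the gene that moves between the sets.

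Ldha (mm10 chr7:46841475-46855627, plus strand) was the more abundant dehydrogenase gene in every library. It stood at 571 and 686 CPM in sorted tumor neutrophils, against 128 and 130 CPM in blood. The groups did not overlap, and the change was 2.35 ± 0.17 on the log2 scale (edgeR adjusted p = 2.19e-05). Unmarked neutrophils had 607 and 721 CPM in tumor and 129 and 127 CPM in blood, a change of 2.69 ± 0.15 (edgeR adjusted p = 6.75e-06). After each cell was thinned to 1000 UMIs, 33.9% and 37.1% of unmarked tumor neutrophils had an Ldha UMI, against 11.4% and 11.6% of those in blood. Unthinned, the shares were 58.2% and 60.9% in tumor against 37.1% and 34.5% in blood, so both the share of cells and the level were higher.

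Ldhb (chr6:142490249-142507957, minus strand) showed the largest change of the 10 with all neutrophils. It stood at 26.2 and 22.0 CPM in sorted tumor neutrophils, against 0.700 and 0.874 CPM in blood, a change of 4.96 ± 0.21 (edgeR adjusted p = 3.36e-06). Most of these molecules lay in few cells: marked cells held 88.5% and 82.8% of the Ldhb UMIs of the sorted tumor neutrophils, against 18.1% and 12.6% of all their UMIs. In unmarked neutrophils Ldhb was 3.70 and 4.32 CPM in tumor and 0.702 and 0.845 CPM in blood, which rests on 139 and 25 UMIs in all. The groups still did not overlap, and the change was 2.67 ± 0.33 (edgeR adjusted p = 0.000285). That remaining level was 4.46% and 3.27% of Ldhb in the other cells of the same libraries, and the 8 microglia markers stood at a median of 2.12% and 1.34% of theirs, with a range of 1.58% to 18.4% and 1.15% to 11.7%; the part of foreign RNA in what remains was not tested.

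**Figure D2:**
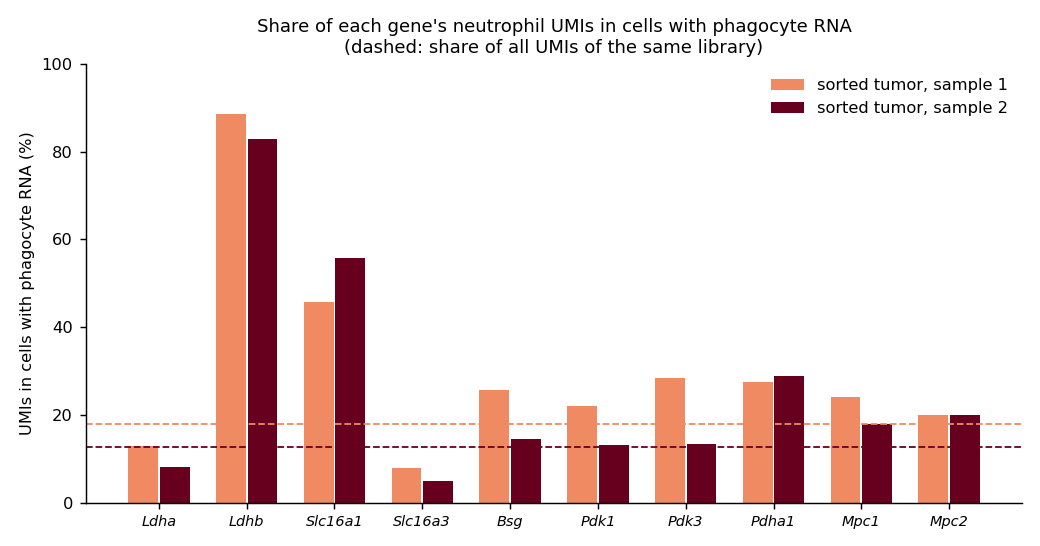
Share of each gene's UMIs (percent) that lay in cells with phagocyte RNA, among sorted tumor neutrophils, per library; dashed lines give the share of all UMIs in the same cells, 18.1% and 12.6%. Ldhb stands at 88.5% and 82.8% and Slc16a1 at 45.7% and 55.8%, while Slc16a3 lies below the lines at 7.95% and 5.06%.

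Ldha thus made up nearly all lactate dehydrogenase RNA of neutrophils in both tissues. Its share of the pair's UMIs was 95.6% and 96.9% in sorted tumor neutrophils, against 99.5% and 99.3% in blood. Among unmarked neutrophils it was 99.4% in both tumor libraries, with exact Clopper-Pearson 95% intervals of 99.2% to 99.6% and 99.3% to 99.5%, against 99.5% and 99.3% in blood. The lower share in tumor was seen only with marked cells counted; the groups overlapped without them. An exact two-sided permutation test over 2 against 2 libraries cannot go below p = 0.333, so isoform shares are given as values; the intervals cover counting error only.

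Slc16a3 (chr11:120948480-120960868, plus strand), the gene of the low-affinity lactate exporter MCT4, was already abundant in blood. It stood at 347 and 378 CPM in sorted tumor neutrophils, against 201 and 195 CPM in blood, a change of 0.94 ± 0.14 (edgeR adjusted p = 0.000744). The groups did not overlap. Unmarked neutrophils had 390 and 411 CPM in tumor, against 202 and 198 CPM in blood, a change of 1.32 ± 0.12 (edgeR adjusted p = 5.59e-05). After thinning, 27.7% and 28.9% of unmarked tumor neutrophils had a Slc16a3 UMI, against 17.6% and 17.7% in blood, so in blood more neutrophils carried a Slc16a3 UMI than an Ldha UMI.

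Slc16a1 (chr3:104638668-104658462, plus strand), the gene of MCT1, was barely detected in neutrophils. It had 35 and 43 UMIs, or 2.26 and 1.76 CPM, in sorted tumor neutrophils, against 1 and 6 UMIs, or 0.0777 and 0.309 CPM, in blood. The ratio of the summed counts was 9.03 (95% counting interval 4.18 to 23.2), and the fitted change was 3.25 ± 0.52 (edgeR adjusted p = 0.00108). In unmarked neutrophils 38 UMIs in tumor stood against 6 in blood, a ratio of 5.91 (2.48 to 17.1) with a fitted change of 2.89 ± 0.59 (edgeR adjusted p = 0.00381). The level left in tumor was 18.2% and 13.7% of that in the other cells of the same libraries. Slc16a3 made up 99.4% and 99.5% of the UMIs of the pair in sorted tumor neutrophils, against 99.96% and 99.8% in blood.

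Bsg (chr10:79704491-79711969, plus strand), whose protein escorts both transporters to the membrane, rose as well. It stood at 211 and 267 CPM in sorted tumor neutrophils, against 41.5 and 48.0 CPM in blood, a change of 2.49 ± 0.18 (edgeR adjusted p = 2.39e-05). Unmarked neutrophils gave a change of 2.73 ± 0.20 (edgeR adjusted p = 1.85e-05). The groups did not overlap in either set. The gene of embigin, another chaperone of monocarboxylate transporters, moved the opposite way. Emb stood at 168 CPM in both sorted tumor libraries and at 767 and 771 CPM in blood. It fell by 2.13 ± 0.13 on the log2 scale (edgeR adjusted p = 1.17e-05), or by 1.77 ± 0.11 in unmarked neutrophils.

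Pdk1 (chr2:71873224-71903858, plus strand), a kinase that inactivates pyruvate dehydrogenase, was scarce in blood. It stood at 32.1 and 31.1 CPM in sorted tumor neutrophils, against 4.59 and 3.24 CPM in blood, a change of 3.10 ± 0.21 (edgeR adjusted p = 1.52e-05). Its groups did not overlap, and marked cells held no more than 22.1% of its tumor UMIs. Pdk3 (chrX:93764607-93832201, minus strand), the kinase gene on the X chromosome, stood at 19.5 and 23.7 CPM in sorted tumor neutrophils, against 11.1 and 9.92 CPM in blood. It rose by 1.12 ± 0.19 (edgeR adjusted p = 0.00166). In unmarked neutrophils the changes were 3.32 ± 0.21 for Pdk1 and 1.30 ± 0.23 for Pdk3. The unscaled ratio of mean CPM, tumor over blood, did not rise with them. It was 8.08 with all and 7.90 with unmarked neutrophils for Pdk1, and 2.06 and 1.96 for Pdk3.

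The order of the kinase genes therefore differed between the sorted tumor and the sorted blood neutrophils. Pdk1 made up 62.2% and 56.7% of the Pdk1 and Pdk3 UMIs of sorted tumor neutrophils, against 29.2% and 24.6% in blood. Their exact 95% intervals, of 58.7% to 65.5% and 54.0% to 59.4% in tumor and of 23.0% to 36.0% and 19.5% to 30.4% in blood, did not meet. The mean log2 ratio of Pdk1 to Pdk3 was 0.54 ± 0.23 in tumor and -1.34 ± 0.20 in blood (SD, n = 2 each; exact two-sided permutation p = 0.333, the smallest possible). For unmarked neutrophils the shares were 64.1% and 56.8% in sorted tumor and 29.4% and 24.7% in blood. The CD45+ tumor neutrophils had no clear order, with a mean Pdk1 share of 51.8 ± 4.65%, or 51.4 ± 6.85% in unmarked ones (SD, n = 2). In the other cells of these libraries the share was 54.0 ± 0.93% (SD, n = 2). Of the remaining kinase genes, Pdk2 fell by 1.22 on the log2 scale (SE 0.38; edgeR adjusted p = 0.0223), at 0.774 and 0.533 CPM in tumor and 1.48 and 1.65 CPM in blood, and Pdk4 did not pass the filter on low counts.

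**Figure D3:**
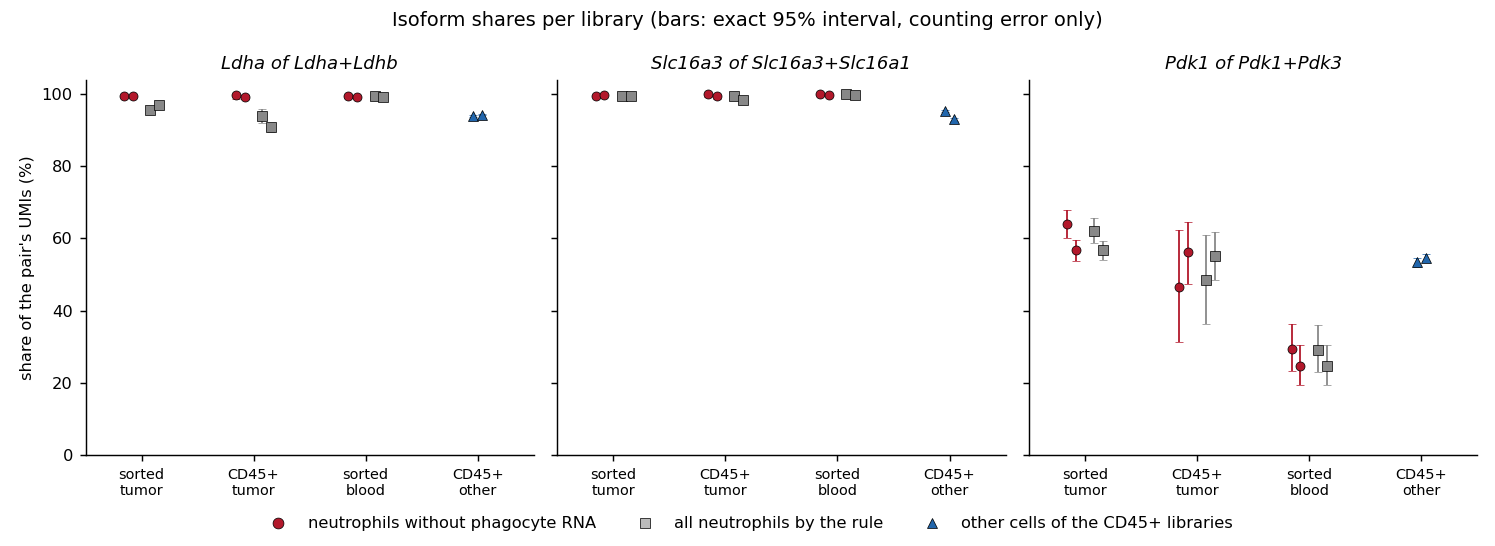
Share (percent of the pair's UMIs) of Ldha, Slc16a3 and Pdk1 in their isoform pairs, per library, with exact 95% intervals that cover counting error only. Pdk1 takes 62.2% and 56.7% in sorted tumor and 29.2% and 24.6% in blood neutrophils, while the Ldha share in tumor neutrophils lies below that in blood only where marked cells are kept.

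Pdha1 and the mitochondrial pyruvate carrier fell. Pdha1 (chrX:160122209-160138413, minus strand) stood at 12.7 and 10.6 CPM in sorted tumor neutrophils, against 18.9 and 23.0 CPM in blood, a change of -0.79 ± 0.15 (edgeR adjusted p = 0.00285). Mpc1 (chr17:8282904-8297661, plus strand) stood at 113 and 120 CPM in sorted tumor neutrophils, against 244 and 271 CPM in blood, a change of -1.08 ± 0.13 (edgeR adjusted p = 0.000260). Mpc2 (chr1:165460637-165481214, plus strand) stood at 56.6 and 49.1 CPM in sorted tumor neutrophils, against 79.6 and 91.2 CPM in blood, a change of -0.63 ± 0.12 (edgeR adjusted p = 0.00211). The groups did not overlap for any of these genes, and in unmarked neutrophils the changes were -0.77 ± 0.17, -0.94 ± 0.12 and -0.47 ± 0.12 with edgeR adjusted p of 0.00584, 0.000404 and 0.0100. After thinning, 8.29% and 9.14% of unmarked tumor neutrophils had an Mpc1 UMI, against 20.2% and 23.3% in blood, where Mpc1 was the most abundant of the 10 genes.

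**Figure D4:**
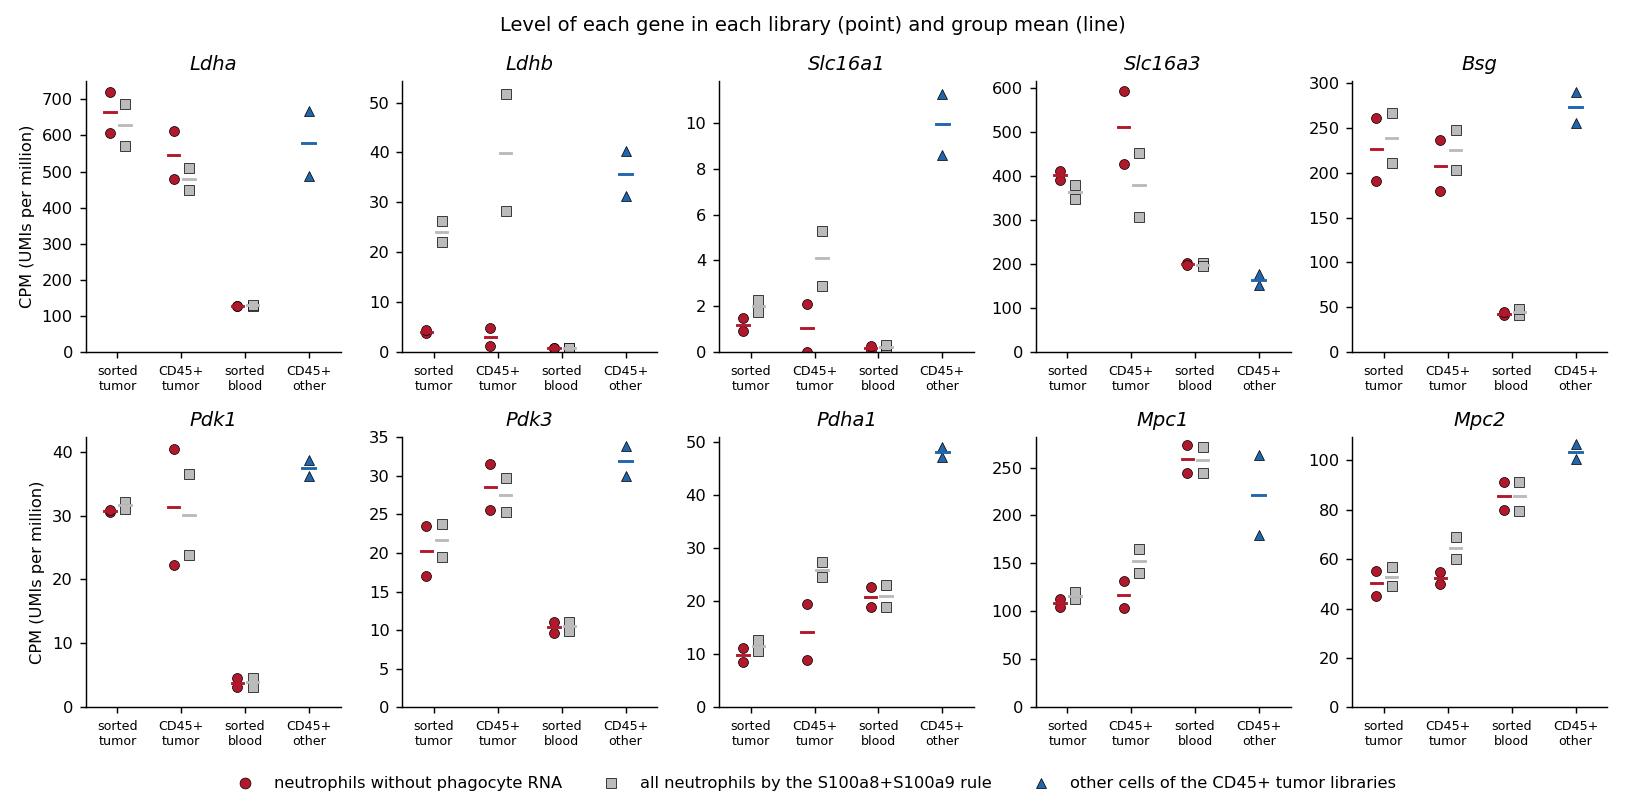
CPM of each gene in each library, with group means as lines. Red circles are unmarked neutrophils (without phagocyte RNA), grey squares all neutrophils by the rule and blue triangles the other cells of the CD45+ tumor libraries. Pdha1, Mpc1 and Mpc2 are lower in both sorted tumor libraries than in blood, and the other genes shown are higher.

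Within tumor neutrophils, Ldha went with Bsg and Pdk1 cell by cell. Among unmarked cells thinned to 1000 UMIs, 6.35% and 5.80% of the sorted tumor neutrophils with an Ldha UMI had a Pdk1 UMI, against 1.43% and 1.02% of those without one. A Bsg UMI was found in 27.5% and 33.2% of those with Ldha and in 10.2% and 10.6% of those without. The CD45+ tumor libraries had 5.38% and 5.83% against 0.311% and 2.33% for Pdk1 and 26.2% and 28.3% against 11.2% and 12.1% for Bsg. Slc16a3 did not follow Ldha in this way, with 27.1% and 25.1% against 28.0% and 31.2% in sorted tumor. In blood neutrophils the Bsg shares were 4.36% and 3.37% with Ldha and 3.57% and 4.82% without. These shares are over cells of single libraries and carry no test.

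Other genes of the pathway were called in both directions, and their counts stand against 33.3% of all genes called higher and 30.7% lower, or 30.5% and 29.2% in unmarked neutrophils. Of 7 genes of the pyruvate dehydrogenase complex and its phosphatases, 6 were tested, with 4 higher and 2 lower; in unmarked neutrophils 2 of 5 were higher and 1 lower. Of 14 genes of the tricarboxylic acid cycle and the malate-aspartate shuttle, 5 were higher and 7 lower, and in unmarked neutrophils 1 was higher and 6 lower, at a median log2 change of -0.35 against -0.01 over all genes tested. Got2, the mitochondrial aspartate aminotransferase gene of the shuttle, stood at 29.4 and 29.7 CPM in sorted tumor neutrophils, against 80.8 and 86.7 CPM in blood, a change of -1.44 ± 0.12 (edgeR adjusted p = 4.90e-05). Ogdh, which encodes the E1 subunit of the 2-oxoglutarate dehydrogenase complex, changed by -1.03 ± 0.12 (edgeR adjusted p = 0.000178). Got1 changed by 1.31 ± 0.23 with all neutrophils and by 0.49 ± 0.25 in unmarked ones (edgeR adjusted p = 0.128), where it no longer passed the test.

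Of 6 other carrier, chaperone and receptor genes 3 were tested, and Emb and Slc16a7 were lower in tumor. Of 11 other genes that make or use pyruvate or lactate, 6 were tested and 1 was higher. In unmarked neutrophils 5 were tested, with 1 higher and 1 lower. The gene called higher was Pkm, which encodes the pyruvate kinase that makes pyruvate. In unmarked neutrophils Pkm stood at 718 and 725 CPM in sorted tumor and at 453 and 403 CPM in blood, a change of 1.06 ± 0.13 (edgeR adjusted p = 0.000221). Slc16a7, the gene of the high-affinity transporter MCT2, stood at 1.18 and 1.08 CPM in tumor and at 6.63 and 7.50 CPM in blood among unmarked neutrophils, a change of -2.33 ± 0.26 (edgeR adjusted p = 0.000174).

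Sorted tumor neutrophils, the libraries used above, were then set against neutrophils found in the CD45+ tumor libraries, the same tissue taken through another gate. None of the 10 genes passed the test (edgeR, adjusted p threshold 0.05), where 6.09% of 12497 genes did (2.17% higher, 3.92% lower); 2 of the 10 had an unadjusted p under 0.05, and DESeq2 called 1, Ldha. Other settings called up to 3 of the 10, and those that called 3 called 4496 of 12925 and 4579 of 12901 genes. Ldha stood at 571 and 686 CPM in sorted tumor neutrophils, against 448 and 511 CPM in CD45+ neutrophils, a difference of 0.76 ± 0.21 on the log2 scale with an interval of 0.27 to 1.24 (edgeR adjusted p = 0.0702). Pdha1 differed by -0.82 ± 0.21 (interval -1.31 to -0.33). Unmarked neutrophils gave differences of 0.51 (-0.01 to 1.04) and -0.41 (-1.30 to 0.49), and none of the 10 had an unadjusted p under 0.05, where 0.0453% of 11034 genes were called.

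The CD45+ neutrophils were also placed beside the blood neutrophils, with no test. Among unmarked neutrophils, Ldha at 480 and 612 CPM, Bsg at 180 and 237 CPM, Pdk1 at 22.2 and 40.5 CPM and Slc16a3 at 593 and 427 CPM lay above both blood libraries. Mpc1 at 103 and 131 CPM and Mpc2 at 49.9 and 54.7 CPM lay below them. Pdha1, at 8.88 and 19.4 CPM, and Slc16a1, at 0 and 2.10 CPM, overlapped with blood; in the library without a Slc16a1 UMI the depth allows up to 3.33 CPM, taking 3 counts as the limit. With all CD45+ neutrophils Pdha1 stood at 24.6 and 27.4 CPM, above both blood libraries and so on the other side of blood from the sorted tumor neutrophils. These values rest on few molecules, such as 8 and 37 UMIs for Pdha1, and the blood libraries are the same ones as in the comparison above.

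Neutrophils of the CD45+ libraries were next set against all other leukocytes of the same libraries, which asks whether the isoform choice differs between cells of a tumor. Slc16a3 was higher in neutrophils, and Slc16a1, Pdha1 and Mpc2 were lower. These 4 of the 10 genes were called by edgeR with the library as a block, where 41.7% of 16140 genes were called (18.9% higher, 22.8% lower); the median log2 change was -0.04 over the 10 genes and -0.16 over all. With unmarked neutrophils 6 were called, with Ldhb and Mpc1 lower as well, where 46.1% were called (18.8% higher, 27.3% lower), at medians of -0.26 and -0.40. With 1 residual degree of freedom these p-values, SEs and intervals rest on a spread pooled over all genes, and a gene's own spread hardly enters. DESeq2 and the fit without the block each called Slc16a3 alone of the 10.

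Slc16a3 stood at 452 and 306 CPM in neutrophils and at 178 and 151 CPM in other cells, a difference of 1.41 ± 0.14 (edgeR adjusted p = 7.06e-23). Unmarked neutrophils had 593 and 427 CPM, and the difference was 2.01 ± 0.19. Over 12 alternatives the difference ran from 1.125 to 2.01, with an adjusted p of up to 0.0125 by edgeR or DESeq2. Slc16a1 was the reverse, at 2.89 and 5.29 CPM in neutrophils and 8.61 and 11.3 CPM in other cells (-0.99 ± 0.39, edgeR adjusted p = 0.0280). Slc16a3 accordingly made up 99.4% and 98.3% of the pair in neutrophils and 95.4% and 93.0% in other cells. Pdha1 stood at 24.6 and 27.4 CPM in neutrophils and at 49.0 and 47.1 CPM in other cells, a difference of -0.64 ± 0.19 (edgeR adjusted p = 0.00283). Mpc2 stood at 59.9 and 69.1 CPM in neutrophils and at 100 and 106 CPM in other cells, a difference of -0.45 ± 0.16 (edgeR adjusted p = 0.0128).

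Ldhb turned on which cells were counted. With all neutrophils it stood at 28.2 and 51.8 CPM in neutrophils and at 31.3 and 40.2 CPM in other cells, and the difference of 0.40 ± 0.18 was not called (edgeR adjusted p = 0.0610). Marked cells held 97.4% and 94.9% of these UMIs; unmarked neutrophils had 1 and 9, or 1.11 and 4.73 CPM, and the difference was -3.01 ± 0.43 (edgeR adjusted p = 3.92e-11). Ldha, Bsg, Pdk1 and Pdk3 were called in neither set, though Ldha and Bsg were called lower with no scaling (log2 differences of -0.26 and -0.27 with all neutrophils; edgeR adjusted p = 0.0316 and 0.0327). The 4 genes had intervals of -0.04 to 0.67, -0.36 to 0.36, -0.34 to 0.71 and -0.27 to 0.81 for unmarked neutrophils. Of the 14 genes of the tricarboxylic acid cycle and shuttle, 11 were lower and none higher with all neutrophils, and 10 were lower and none higher with unmarked ones, where 22.8% and 27.3% of all genes were called lower.

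The other leukocytes differed widely among themselves, as seen in clusters made without the 10 genes and named by markers; these values are a description with no test. Ldhb was highest in microglia-like cells, at 148 and 191 CPM, where Ldha took 67.0% and 64.4% of the pair. Macrophage-like cells had 46.9 and 45.1 CPM of Ldhb, T or NK-like cells 35.3 and 38.1 CPM and monocyte-like cells 12.6 and 16.6 CPM. Dendritic-like cells had 2.21 and 2.95 CPM, a level near that of unmarked neutrophils, and an Ldha share of 99.3% in both libraries. Ldha itself was highest in clusters without a name, at 585.5 and 919 CPM. It was 526 and 697 CPM in neutrophil-like, 510 and 643 CPM in monocyte-like, 408 and 551 CPM in macrophage-like and 105 and 79.3 CPM in B or plasma-like cells.

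The transporters were ordered otherwise. Slc16a3 was higher in neutrophils than in the named classes; monocyte-like cells had 326 and 179 CPM, clusters without a name 196 and 191 CPM and macrophage-like cells 133 and 136 CPM. It was lowest in B or plasma-like cells, at 8.38 and 5.66 CPM. Slc16a1 was 12.8 and 12.7 CPM in T or NK-like cells, 10.6 and 10.5 CPM in microglia-like cells and 2.21 and 2.64 CPM in dendritic-like cells. Pdk1 took 63.2% and 55.4% of the kinase pair in microglia-like cells and 44.2% and 43.4% in monocyte-like cells. Clusters without a name held 43.0% and 26.7% of these cells. Different clusters made up most of the unnamed, macrophage-like and monocyte-like cells in the 2 libraries.

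**Figure D5:**
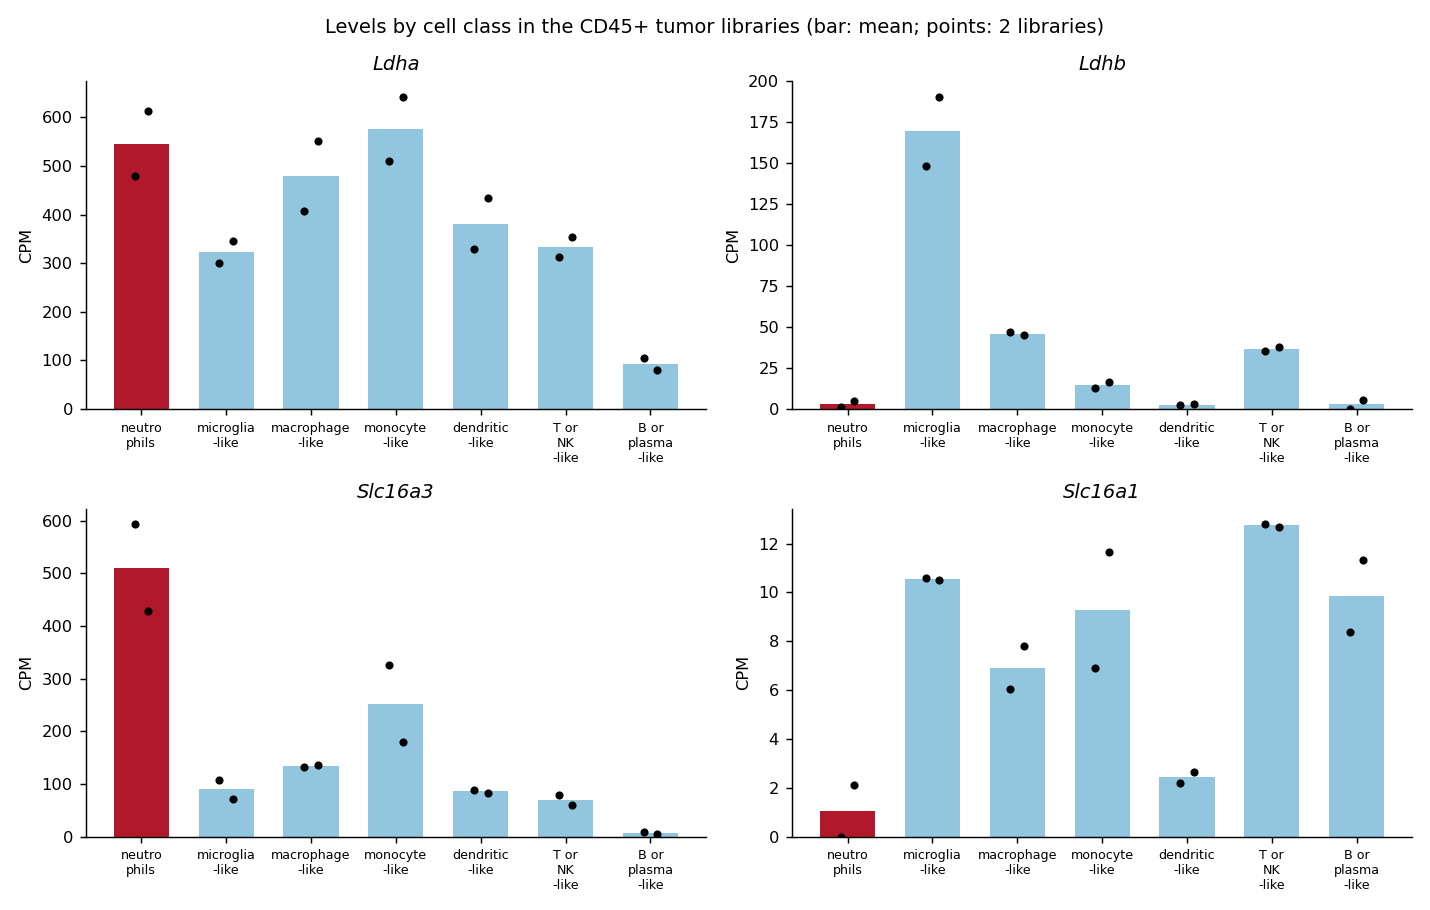
CPM of the dehydrogenase and transporter genes by cell class in the 2 CD45+ tumor libraries; bars are means, points are libraries, and neutrophils are the unmarked ones, without phagocyte RNA. Ldhb stands at 1.11 and 4.73 CPM in neutrophils and at 148 and 191 CPM in microglia-like cells, and Slc16a3 at 593 and 427 CPM in neutrophils and 8.38 and 5.66 CPM in B or plasma-like cells.

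Genes with the most similar pattern were sought over 17 profiles, the neutrophils of each library and each large named class, among 6175 genes by Pearson r of log2(CPM + 10). The profiles share libraries, so r is a description. Ldha was most like Ssr3 (r = 0.968), Cdkn1a (r = 0.945) and Sod2 (r = 0.933). Slc16a3 was most like Rnf149 (r = 0.970), Fndc3b (r = 0.963) and Emilin2 (r = 0.961). Slc16a1 was most like Prrc1 (r = 0.907), Tigd2 (r = 0.888) and Memo1 (r = 0.882), and Pdk1 was most like Pcna (r = 0.918), Lgmn (r = 0.912) and Ly86 (r = 0.904). With unmarked neutrophils in the profiles, among 6099 genes, Ldha had the same 3, Ldhb was most like Fcrls (r = 0.987), Olfml3 (r = 0.982) and Tmem119 (r = 0.9745), which are markers of microglia, and none of the 3 genes closest to Pdk1 was among the first 3.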

How the data were processed

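The authors deposited UMI counts, one whole number for each gene in each cell, as filtered matrices. The submitters' processing notes name Cell Ranger 7.1.0 and mm10, and the sources used here do not give the annotation. Groups came from the labels. The 10 genes, the gene lists and the marker lists were chosen with earlier results of these data known. The libraries held 4158 and 6612 (sorted tumor), 9418 and 8851 (CD45+ tumor) and 3121 and 5330 barcodes (blood), with 13945799 to 129422458 UMIs each. Depth limits the CD45+ neutrophils most, which held 1384566 and 3400261 UMIs.

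Barcodes under 200 genes or above 10% mitochondrial UMIs were dropped, and the cells with the highest Scrublet scores (scanpy 1.11.5) were removed at 0.8% per 1000 cells, which took 137 and 347, 700 and 607, and 78 and 226 cells. Of the neutrophils, 9.53% and 7.57%, 16.6% and 11.2%, and 2.91% and 2.12% lay between 0.5% and 1% of S100a8 and S100a9. UMIs were summed per library, scaled by TMM after filterByExpr, and tested by the quasi-likelihood F test of edgeR 4.0.16 (R 4.3.3, limma 3.58.1), adjusted over all genes tested; the tests were tested on simulated data. Only the comparison within CD45+ libraries had a block. CPM use unscaled totals, and TMM shifts fitted changes from them. Between tumor and blood the TMM factors lay further apart without marked cells, at 0.945 and 0.854 in sorted tumor and 1.10 and 1.12 in blood. Fitted changes of all and of unmarked neutrophils therefore differ partly by scaling. A 3' UMI count carries no length factor. No library was a second copy of another: within the groups, chi-square over its degrees of freedom was 22.5, 10.0 and 11.8. Isoform ratios used a pseudocount of 0.5 CPM. Other cells were clustered with leidenalg 0.10.2 (2000 variable genes, 30 components, 15 neighbours, resolution 1.0, seed 1); a marker counted at 10 CPM and 2-fold above its median over clusters, and a name needed at least 3. All 10 genes are named in every comparison; list genes are named where called with a log2 change of at least 1 between tumor and blood in either set of cells. Alternatives were DESeq2 1.42.0, other scaling, no filters, other S100a8 and S100a9 thresholds, a replicate block, each library left out and no cells with phagocyte RNA; leaving out shared barcodes, and leaving out both scaling and the cells with phagocyte RNA, were chosen after seeing the data. Gene coordinates are 1-based, mm10, from GENCODE vM21. Intervals and shares used scipy 1.17.1 and numpy 2.4.6, and plots matplotlib 3.10.9. The genes most like Ldhb over all neutrophils are not reported here.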

Additional observations from a re-analysis of the deposited data

Results flagged for a closer look

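A pair of signals lay in cells that the comparisons above do not use, the 656 and 687 cells of the sorted tumor libraries under the S100a8 and S100a9 threshold. Ldhb averaged 107.4 ± 34.6 CPM there (SD, n = 2; 82.9 and 132 CPM), against 0.827 CPM in the corresponding cells of the sorted blood libraries, which is 1 UMI and under the 2.05 CPM that 3 counts over both libraries would give. Slc16a1 averaged 7.34 ± 1.21 CPM there (SD, n = 2), from 43 and 37 UMIs, against 0 in the 86 and 78 corresponding blood cells, where a count of 0 allows up to the same 2.05 CPM. These cells had 23480 and 26800 CPM of the 10 macrophage markers and 2474 and 3087 CPM of the 8 microglia markers in the sorted tumor libraries, and 1466 and 1921 CPM and 323 and 204 CPM in blood. The 7 B or plasma cell markers summed to 7.06 and 15.3 CPM in the sorted tumor libraries and to 3059 and 3384 CPM in blood, so the cells under the threshold are not of the same kind in the 2 tissues. Groups of 2 libraries are too small for a test of single outlying samples.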

How the results depend on the processing

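All 160 values of the 10 genes between tumor and blood over 16 alternatives had the same direction and passed the test. Deviations of libraries with the same replicate number from their group means were hardly correlated over genes (-0.0469 and -0.0167). With 2 libraries per group this cannot show whether the numbers pair mice. A replicate block gave 8863 calls between tumor and blood, against 8726, and 1171 between sorted and CD45+ neutrophils, against 761. Without shared barcodes there were 6913 calls between tumor and blood. Leaving out a library gave 7642 to 7792 calls between tumor and blood.

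The count between sorted and CD45+ neutrophils was unstable. It was 4496 with all deposited barcodes, 4579 with no doublet removal, 2527 with no expression filter, 1165 with DESeq2, 1934 with no scaling (139 higher and 1795 lower, against 271 and 490), 3813 and 15 at thresholds of 0.25% and 1%, 41 without shared barcodes, and 5 and 87 without marked cells, scaled and unscaled. It was 1785 and 1538 without CD45+ samples 1 and 2, and 177 and 30 without sorted tumor samples 1 and 2. Neutrophils against other cells gave 4467 calls with DESeq2 (2621 higher and 1846 lower, against 3056 and 3677), 2491 higher and 5243 lower with no scaling, and 3192 without the replicate block; with 1 library fewer that comparison could not be fitted with an error.

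Between sorted and CD45+ neutrophils, none of the 10 genes was called as reported, but 8 of 16 alternatives called 1 to 3: Ldha higher (all barcodes, no doublet removal, no expression filter, DESeq2, 0.25%, without CD45+ sample 2), Pdha1 lower (all barcodes, no doublet removal, no scaling, 0.25%, without CD45+ sample 1), Slc16a3 higher (all barcodes, no doublet removal) and Ldhb lower (without CD45+ sample 1). The alternatives with all barcodes and with no doublet removal called 3 of the 10, and 4496 of 12925 and 4579 of 12901 genes in all. Log2 differences near 0 changed sign. Without marked cells Ldhb was 0.45, Mpc1 0.10, Pdk3 -0.28 and Slc16a3 -0.11; unscaled as well, Ldhb was 0.24, Mpc2 -0.072, Pdk1 -0.086, Pdk3 -0.51 and Slc16a3 -0.35. With no scaling Mpc2 was -0.30, Pdk3 -0.36 and Slc16a3 -0.060. With all barcodes, no doublet removal and the 0.25% threshold Mpc2 was -0.11, -0.11 and -0.086 and Pdk3 -0.018, -0.0035 and -0.021. Mpc1 was 0.042 with no expression filter and 0.054 at 1%. Over libraries left out, Ldhb ran from -0.76 to 0.15, Mpc1 from -0.16 to 0.11, Mpc2 from -0.043 to 0.19 and Pdk3 from -0.22 to 0.22.

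Between neutrophils and other cells, alternatives called 1 to 7 of the 10 genes, against 4. With no scaling 7 were called in both sets of cells, where 7734 of 16140 and 8520 of 15829 genes were called. DESeq2 and the fit without the block called 1 each, and 4467 and 3192 of 16140 genes. Bsg was called lower with no scaling in both sets of cells, and Ldha with all neutrophils. Differences also changed sign: with all barcodes, DESeq2, no doublet removal, RLE factors and the 0.25% threshold Bsg was 0.047, 0.059, 0.045, 0.060 and 0.10, and Pdk1 was 0.021, 0.038, 0.020, 0.081 and 0.18. Ldha was 0.077 with DESeq2, 0.074 with RLE factors, 0.067 at 0.25% and 0.32 without marked cells, where Pdk1 was 0.19 and Ldhb -3.01 (-3.43 unscaled); Pdk1 was 0.00099 without shared barcodes. Ldhb was -0.049 at 1%. Pdk3 was -0.033 with no expression filter, -0.17 with no scaling, -0.047 at 1% and -0.12 without scaling and marked cells. The cause was not tested.

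The Ldha share in blood, 99.4% on average, was 99.5% as a mean over cells. In sorted tumor it was 96.2%, 99.4% without marked cells and 98.5% as a mean over cells; the Slc16a3 share was 99.4%, 99.7% and 99.6%. Depth limits Slc16a1, Ldhb and all values of CD45+ neutrophils.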

Other observations

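Of the cells under the S100a8 and S100a9 threshold in the CD45+ libraries, 95 and 93 fell in a neutrophil-like cluster led by S100a9, Acod1 and Cstdc4. They had 526 and 697 CPM of Ldha, 222 and 157 CPM of Slc16a3 and 40.4 and 41.1 CPM of Ldhb.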
